A study of Drosophila melanogaster with 36 samples.

Results

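The sarcomere is the repeating contractile unit of striated muscle, and 35 Drosophila genes that encode its main proteins were followed here in indirect flight muscle (IFM), the fibrillar muscle that powers the wings. The members were taken as the rows of the count table whose gene symbol equals a listed symbol: 4 muscle actins, 6 thick filament genes, 4 genes for tropomyosin and troponin T and I, 5 troponin C genes, 4 genes for titin-like and elastic proteins, 8 Z-disc genes and 3 genes for actin capping proteins. Of the 35 listed genes, 34 matched a row among 16727, and all 34 were among the 9996 genes that passed the filter on low counts. Msp-300, the remaining listed gene, matched no row.

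In a sarcomere, thin filaments of actin slide along thick filaments of myosin, and calcium starts the movement by binding troponin C, which shifts tropomyosin on the thin filament. Thin filaments are anchored at the Z-disc, and titin-like proteins join the Z-disc to the thick filaments and give the fibre its stiffness. Drosophila makes IFM and the tubular muscles of leg and jump from partly different genes of the same family, so that Act88F, fln and TpnC4 mark IFM while Act79B and TpnC41C mark tubular muscle, and Act57B, Act87E, TpnC47D and TpnC73F are known mainly from larval or visceral muscle.

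IFM RNA was counted over the day in 6 groups of 3-week-old female flies kept at 22 °C. Sk2 flies carry a mutation of Sphingosine kinase 2 and ate regular food, HFD flies are Canton-S given food with 5% coconut oil, and WT flies are Canton-S on regular food. Sk2-TRF, HFD-TRF and WT-TRF flies had food for 12 h of the day, from lights on at ZT0 to lights off at ZT12, whereas Sk2-ALF, HFD-ALF and WT-ALF flies had food for 24 h (time-restricted and ad libitum feeding, begun with the diets on day 4). Every 4 h, from ZT3 in the morning to ZT23 in the night, each group gave 1 library of 10 pooled flies, and 2 libraries that the study left out (Sk2-ALF at ZT23, WT-TRF at ZT11) were left out here too. The remaining 34 libraries give n = 6 for Sk2-TRF, HFD-TRF, HFD-ALF and WT-ALF and n = 5 for Sk2-ALF and WT-TRF. Time points stand in for replicates. The spread behind a p for model or feeding thus includes time of day, unless time point was part of the fit. The strain background of the Sk2 flies is not in the labels, so genotype and background cannot be told apart.

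The 34 libraries held 3329519 to 30682673 counts, and the members took 4.20 to 8.78% of them (median 6.19%). By group the members' share ran from 4.20 to 6.02% in Sk2-TRF, 4.45 to 7.64% in Sk2-ALF, 5.37 to 7.62% in HFD-TRF, 5.08 to 7.34% in HFD-ALF, 5.85 to 8.78% in WT-TRF and 4.91 to 8.73% in WT-ALF. Transcripts of Sk2 itself reached 1.11 to 5.48 CPM (counts scaled to the size of the library) in Sk2-TRF and 1.52 to 4.44 CPM in Sk2-ALF, against 4.94 to 16.4 CPM in the other 4 groups, and were lower than in WT by log2 fold changes of -1.61 under TRF and -1.48 under ALF (adjusted p = 4.81e-04 and 0.00145, edgeR). In the left-out WT-TRF library at ZT11, 30 of the 34 members lay below every WT-TRF library used, and in the left-out Sk2-ALF library at ZT23, 23 lay below every Sk2-ALF library used. Neither count was made over all genes, so a shift of the members and one of the whole library cannot be told apart. Summed markers of other tissues were present throughout: fat body at 5581 to 58862 CPM, gut at 127 to 8141 CPM and neurons at 87.5 to 617 CPM. Eggshell genes summed to 105 and 364 CPM in WT-ALF at ZT7 and ZT11, against 0.422 to 15.7 CPM in all other libraries.

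Levels of different genes were compared per kb of exon. The light chain gene Mlc2, the regulatory light chain of myosin, stood first with a median of 2989 CPM per kb (1255 to 5590 over the 34 libraries), followed by Act57B at 2755 CPM per kb, Act88F at 2263, TpnC4 at 1417 and Mlc1, the essential light chain, at 1332. The lowest medians belonged to the minor troponin C genes TpnC25D (10.4 CPM per kb), TpnC73F (9.96) and TpnC47D (1.87). Between these ends lay the Z-disc gene Zasp66 at 785 CPM per kb, troponin T (up) at 589, troponin I (wupA) at 504, projectin (bt) at 316, myosin heavy chain (Mhc) at 280, paramyosin (Prm) at 271, flightin (fln), a thick filament protein of IFM, at 269, and Sallimus (sls), a titin-like protein, at 140. The remaining 18 members had medians from 12.5 CPM per kb (Zasp67) to 476 CPM per kb (Zasp52). Reads that align to more than 1 place or overlap more than 1 gene were not counted, so that the near-identical coding stretches of actin and of troponin C genes are undercounted and levels within these families are uncertain.

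**Figure D1:**
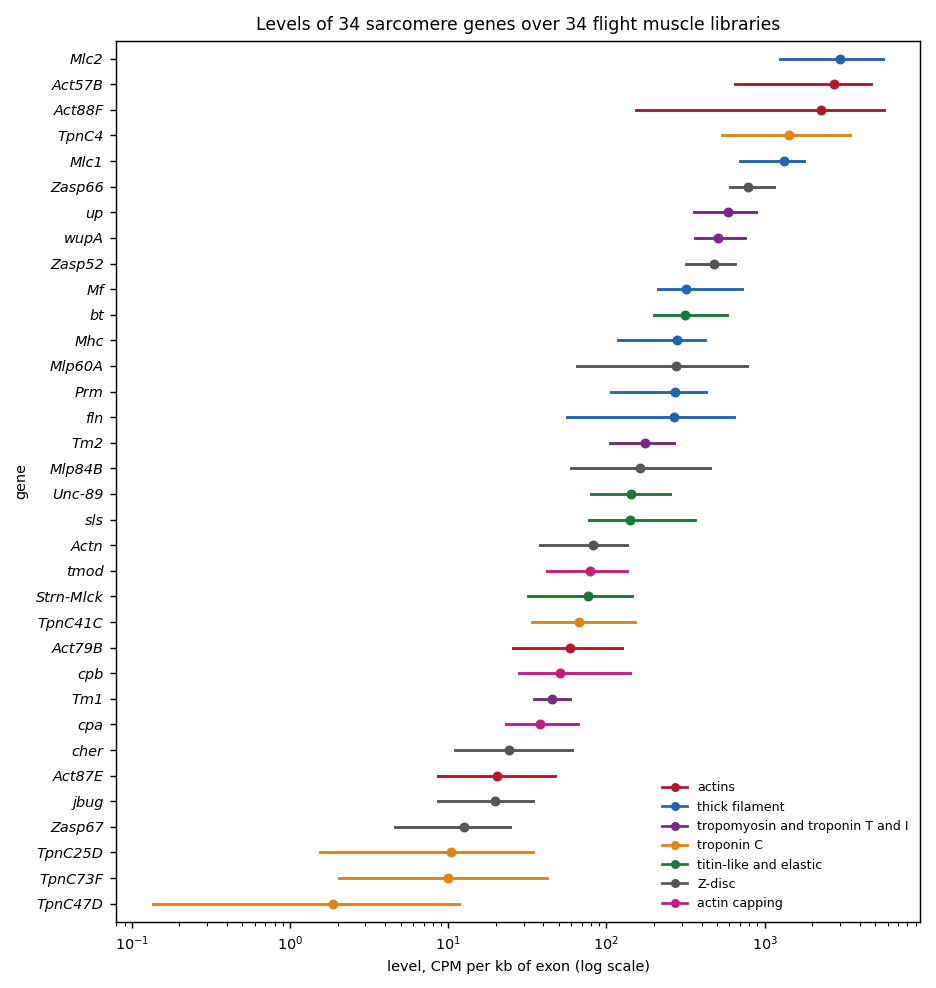
Levels of the 34 sarcomere genes in CPM per kb of exon on a log axis, with a dot at the median and a line from the lowest to the highest of 34 libraries, coloured by role. Mlc2, Act57B and Act88F have the highest medians (2989, 2755 and 2263 CPM per kb), and the Act88F line is the longest among the abundant genes.

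Act88F varied more between libraries than any abundant member. Its levels spanned 36.8-fold over the 34 libraries, from 154 to 5674 CPM per kb, whereas Tm1, a tropomyosin gene, spanned 1.70-fold and Zasp66 1.89-fold. TpnC47D spanned 85.5-fold at 0.136 to 11.7 CPM per kb, with as few as 2 counts in a library.

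Among the 4 muscle actins, Act88F made up a median of 42.1% of the summed level per kb (15.1 to 58.9%) and ranked first in 9 of 34 libraries. Act57B made up 55.3% (40.6 to 79.0%) and ranked first in the other 25. The tubular muscle actin Act79B held 1.15% (0.293 to 9.08%) and Act87E 0.547% (0.112 to 2.51%). Counted Act57B, an actin known from larval and visceral muscle, thus exceeded the flight muscle actin in most libraries. Of the 1724 exon bases of Act57B (chr2R:20944021-20946431), 96 overlap another gene on the same strand, while Act88F (chr3R:15439969-15442177) overlaps none.

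The actin make-up differed between models. The share of Act88F in the muscle actin level had medians of 23.3% in Sk2-TRF and 25.4% in Sk2-ALF, 46.7% in HFD-TRF and 43.5% in HFD-ALF, and 44.4% in WT-TRF and 52.5% in WT-ALF. Act88F exceeded Act79B in level per kb by a median of 4.15 times in Sk2-TRF (2.14 to 7.30) and 6.74 times in Sk2-ALF (3.36 to 49.0), against 55.7 times in WT-TRF (20.7 to 134) and 75.3 times in WT-ALF (17.2 to 201). HFD flies had median ratios of 50.2 under TRF and 41.7 under ALF, and their ranges overlapped those of WT flies.

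The troponin C family was led by the flight muscle gene in every library. TpnC4 made up a median of 93.7% of the summed troponin C level per kb (82.8 to 97.1%) and ranked first in 34 of 34 libraries. TpnC41C, the tubular muscle gene, held 4.24%, TpnC25D 0.760%, TpnC73F 0.518% and TpnC47D 0.103%. TpnC4 exceeded TpnC41C by a median of 22.1 times per kb, and the ranges of this ratio overlapped in all groups. TpnC41C was at 93.4 to 180 CPM in Sk2-TRF, 64.0 to 263 CPM in Sk2-ALF, 110 to 245 CPM in HFD-TRF, 79.5 to 283 CPM in HFD-ALF, 95.6 to 192 CPM in WT-TRF and 88.2 to 256 CPM in WT-ALF, and TpnC25D at 1.94 to 43.1 CPM over all groups. In every library Act88F exceeded Act79B and TpnC4 exceeded TpnC41C per kb, by at least 2.14 and 7.05 times, and both tubular genes were detected throughout.

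Whether a genetic form of obesity alters the contractile genes was addressed by comparing Sk2 with WT flies. Under TRF, 9 of the 34 members were lower and 3 higher in Sk2-TRF than in WT-TRF at an adjusted p under 0.05 (edgeR quasi-likelihood test, Benjamini-Hochberg over 9996 genes), where 12.7% of all genes were called lower and 12.3% higher. The lower members included both major actins, the regulatory light chain of myosin, the muscle LIM proteins and a tropomyosin, and the higher ones flightin, tropomodulin and a stretchin. The median log2 fold change of the members was -0.19, beside -0.05 over all genes tested. Summed fat body markers ran from 23674 to 58862 CPM in Sk2-TRF and from 24020 to 45890 CPM in WT-TRF, and neuron markers from 115 to 252 CPM in Sk2-TRF and from 118 to 317 CPM in WT-TRF. At an adjusted p under 0.05, 1 of 5 fat body, 1 of 4 hemocyte, 1 of 4 trachea and epidermis and 1 of 2 eggshell markers tested were lower in Sk2-TRF. Their part in the member calls was not tested.

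Act88F was at 246, 599 and 1185 CPM (lowest, median and highest) in Sk2-TRF, against 6530, 3335, 8129, 3977 and 4153 CPM in WT-TRF at ZT3, ZT7, ZT15, ZT19 and ZT23. Every Sk2-TRF library was below every WT-TRF library. The log2 fold change was -3.09 ± 0.54 (SE), which is 8.51-fold lower (adjusted p = 7.18e-05). Act57B was at 1120, 1699 and 2052 CPM in Sk2-TRF, against 5793, 4756, 7797, 5314 and 5523 CPM in WT-TRF, without overlap, and was 3.59-fold lower (log2 fold change -1.84 ± 0.27, adjusted p = 7.94e-06).

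Mlp60A encodes a muscle LIM protein, a class of small adaptor proteins of the Z-disc. It was at 184, 243 and 395 CPM in Sk2-TRF, against 2183, 664, 1045, 1257 and 685 CPM in WT-TRF, and was 4.47-fold lower (log2 fold change -2.16 ± 0.30, adjusted p = 3.27e-06). Its relative Mlp84B was at 192, 226 and 296 CPM in Sk2-TRF, against 1120, 348, 454, 475 and 384 CPM in WT-TRF, and was 2.42-fold lower (log2 fold change -1.27 ± 0.28, adjusted p = 9.42e-04). For neither gene did the groups overlap, and for Mlp84B the library of WT-TRF at ZT3 stood highest. Without that library the log2 fold change of Mlp84B was -0.83 (adjusted p = 0.0170).

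Mlc2, the regulatory light chain that lies at the neck of the myosin head, was at 2960, 3788 and 5748 CPM in Sk2-TRF, against 12779, 6676, 9311, 9732 and 6132 CPM in WT-TRF, and was 2.24-fold lower (log2 fold change -1.16 ± 0.24, adjusted p = 6.37e-04). The filamin gene cher, whose product crosslinks actin at the Z-disc, was at 104, 141 and 153 CPM in Sk2-TRF, against 401, 224, 394, 261 and 254 CPM in WT-TRF, and was 2.28-fold lower (adjusted p = 0.00106). The 2 groups did not overlap in either gene. Tm2, a muscle tropomyosin, was 1.63-fold lower at 274 to 370 CPM in Sk2-TRF, against 453 to 683 CPM in WT-TRF (adjusted p = 0.00127). Zasp67 and cpb, the beta subunit of the capping protein at the barbed end of actin, were lower by log2 fold changes of -0.67 (adjusted p = 0.0366) and -0.86 (adjusted p = 0.0386). These last calls were fragile. That of Zasp67 did not hold when any 1 of 8 single libraries was left out (adjusted p up to 0.0971, without WT-TRF at ZT23), and that of cpb when any 1 of 6 was (up to 0.251, without WT-TRF at ZT15, where the log2 fold change was -0.51). With all 36 libraries, Tm2 and Zasp67 had adjusted p = 0.0528 and 0.121.

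Flightin, tmod and Strn-Mlck moved the other way. Flightin was at 447, 655 and 838 CPM in Sk2-TRF, against 271, 417, 354, 330 and 325 CPM in WT-TRF, and was 1.89-fold higher without overlap (log2 fold change 0.92 ± 0.28, adjusted p = 0.0140). Tropomodulin (tmod), which caps the pointed end of thin filaments, was at 750 to 1089 CPM in Sk2-TRF, against 577 to 696 CPM in WT-TRF (1.43-fold higher, adjusted p = 0.0331). Strn-Mlck, a member of the titin and myosin light chain kinase family, was at 2462 to 4743 CPM in Sk2-TRF, against 2087 to 2623 CPM in WT-TRF, with overlap (1.62-fold higher, adjusted p = 0.0386). The call of tmod ended without Sk2-TRF at ZT11, ZT15 or ZT23 or WT-TRF at ZT15 (adjusted p 0.0511 to 0.0719), and that of Strn-Mlck without Sk2-TRF at ZT7, ZT11 or ZT23 or WT-TRF at ZT3 or ZT15 (0.0523 to 0.0875). The other 8 called members, without Zasp67, cpb, tmod and Strn-Mlck, kept adjusted p under 0.05 whichever library was left out.

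**Figure D2:**
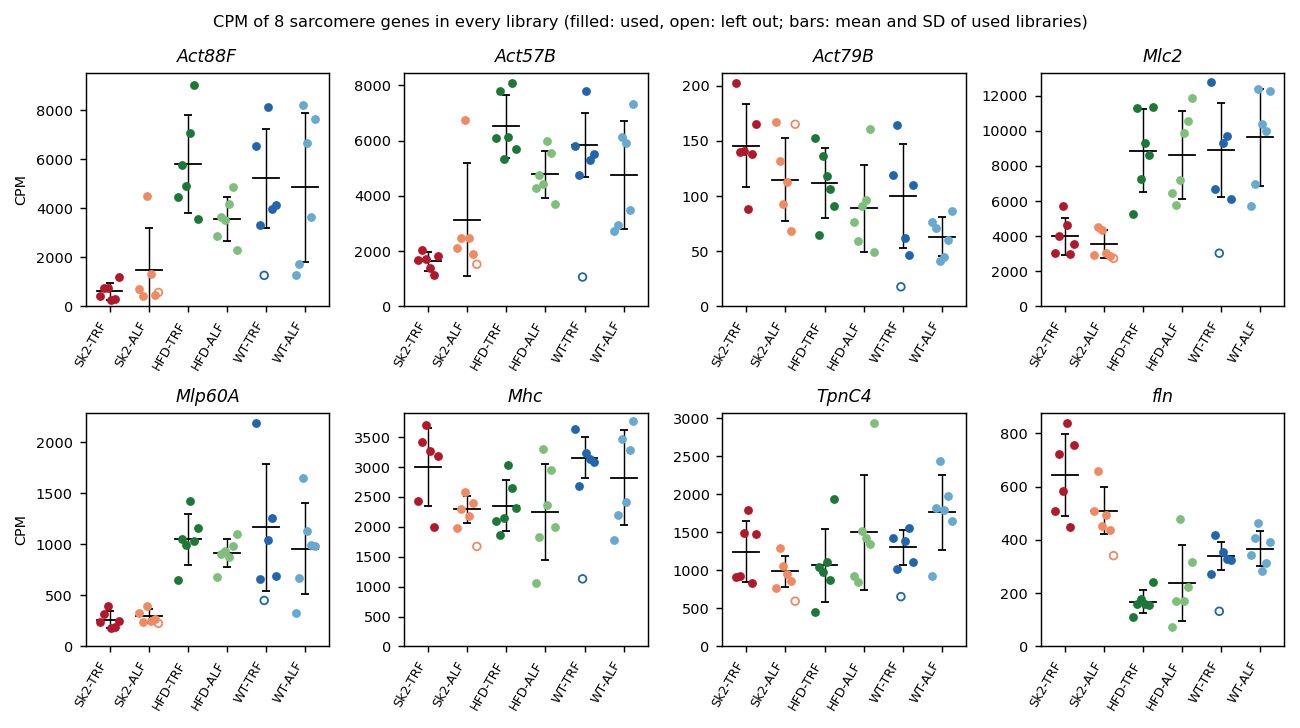
CPM of 8 sarcomere genes in each library of the 6 groups, with filled points for the 34 libraries used, open points for the 2 left out, and bars for the mean and SD. Act88F, Act57B, Mlc2 and Mlp60A sit lower in Sk2-TRF than in every WT-TRF library used, while fln sits higher. The open WT-TRF point (ZT11) lies at 1065 CPM of Act57B and 3032 CPM of Mlc2. In Sk2-ALF, 1 library (ZT11) stands apart at 4497 CPM of Act88F and 6756 CPM of Act57B.

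Under ALF, 9 members were lower and 2 higher in Sk2-ALF than in WT-ALF at an adjusted p under 0.05, beside 12.7% of all genes lower and 10.2% higher. The median log2 fold change was -0.15 over the members and 0.00 over all genes (-0.004). Of the markers tested, 1 of 5 fat body, 1 of 4 hemocyte, 1 of 4 trachea and epidermis and 2 of 2 eggshell genes were lower in Sk2-ALF. These passed an adjusted p under 0.05, and their part in the member calls was not tested. Zasp67, a small Z-disc PDZ protein related to Zasp52 and Zasp66, was at 20.7, 20, 26.4, 21.4 and 15 CPM in Sk2-ALF at ZT3 to ZT19, against 28.3, 56.6 and 79.8 CPM (lowest, median and highest) in WT-ALF. The groups did not overlap, and the fold was 2.77 lower (log2 fold change -1.47 ± 0.24, adjusted p = 4.05e-05). Mlc2 was at 2947, 4507, 4340, 3058 and 2869 CPM in Sk2-ALF, against 5708, 10193 and 12384 CPM in WT-ALF, also without overlap (2.72-fold lower, adjusted p = 6.89e-05).

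The muscle LIM genes and Tm2 were lower under ALF as well, with overlapping groups. Mlp60A was at 328, 241, 398, 250 and 271 CPM in Sk2-ALF, against 329, 987 and 1646 CPM in WT-ALF (3.22-fold lower, adjusted p = 1.37e-04). Mlp84B was at 196, 359, 237, 146 and 147 CPM in Sk2-ALF, against 263, 447 and 770 CPM in WT-ALF (2.21-fold lower, adjusted p = 0.00299). Tm2 was at 289, 428, 299, 316 and 300 CPM in Sk2-ALF, against 362, 570 and 661 CPM in WT-ALF (1.66-fold lower, adjusted p = 0.00103). For both genes the lowest WT-ALF library, ZT3, was below the highest Sk2-ALF library, ZT7. Zasp67, Mlc2, Mlp60A, Tm2 and Mlp84B kept adjusted p under 0.05 whichever library was left out.

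The size of the actin difference under ALF turned on 1 library. Act88F was at 732, 438, 4497, 1326 and 452 CPM in Sk2-ALF at ZT3, ZT7, ZT11, ZT15 and ZT19, against 1294, 5155 and 8222 CPM in WT-ALF. The ZT11 value lay within the WT-ALF range and the others, apart from ZT15, below it. With all 5 Sk2-ALF libraries the log2 fold change was -1.71 ± 0.53 (3.27-fold lower, adjusted p = 0.0186), and without Sk2-ALF at ZT11 it was -2.68. The same library held 6756 CPM of Act57B, against 1907 to 2480 CPM in the other 4, 274 CPM of cpb, against 62.8 to 99.6 CPM, and 21362 CPM of sls, against 5808 to 7651 CPM, whereas its 1.52 CPM of Sk2 was the lowest in Sk2-ALF. Summed fat body and neuron markers were each at their Sk2-ALF maximum in it (25949 and 268 CPM, against minima of 15501 and 87.5 CPM), and their part in the actin values was not tested. The call of Act88F was lost when 1 of 4 single libraries was left out (adjusted p = 0.0606 without Sk2-ALF at ZT19) and when only the compared groups were fitted (0.118).

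Troponin T (up) was at 1099, 1402, 910, 1156 and 1264 CPM in Sk2-ALF, against 1065, 1836 and 2224 CPM in WT-ALF, with overlap (1.53-fold lower, adjusted p = 0.0117, and 0.0515 without Sk2-ALF at ZT11). Also lower in Sk2-ALF were cher, by 1.69-fold (adjusted p = 0.0344), and TpnC4, by 1.79-fold (adjusted p = 0.0413). TpnC4 was at 767, 1295, 1060, 954 and 857 CPM in Sk2-ALF, against 920, 1801 and 2436 CPM in WT-ALF. Without WT-ALF at ZT11, the library with the most eggshell RNA, the adjusted p was 0.125 for TpnC4 and 0.177 for cher, and without both eggshell-rich libraries 0.188 and 0.133. The part of eggshell RNA in these results was not tested. Higher in Sk2-ALF were Act87E, at 39 to 62.5 CPM against 20.4 to 41.1 CPM in WT-ALF (1.85-fold, adjusted p = 0.0348), and Act79B, at 68.1 to 167 CPM against 41.4 to 86.7 CPM in WT-ALF (1.81-fold, adjusted p = 0.0363). The groups overlapped in both genes. Both calls ended without Sk2-ALF at ZT3, ZT7 or ZT15 or WT-ALF at ZT11, and further without WT-ALF at ZT23 for Act87E and at ZT15 for Act79B (adjusted p 0.0513 to 0.130).

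Over the 7 comparisons of model (adjusted p under 0.05) and feeding (the unadjusted threshold of the study), 20 of 34 members, or 58.8%, passed in at least 1, beside 54.4% of all genes. The other 14 passed in none: Mhc, Mlc1, Prm, Tm1, wupA, TpnC41C, TpnC25D, sls, bt, Zasp52, Zasp66, Actn, jbug and cpa. Mhc averaged 2998 ± 652 CPM in Sk2-TRF and 3154 ± 341 CPM in WT-TRF, and 2292 ± 226 CPM in Sk2-ALF and 2819 ± 796 CPM in WT-ALF (SD), and passed no test against WT. Mlc1 averaged 2043 ± 318 CPM in Sk2-TRF and 2016 ± 199 CPM in WT-TRF. The level of Act88F per kb was a median of 1.08 times that of Mhc in Sk2-TRF and 2.07 times in Sk2-ALF, against 7.56 times in WT-TRF and 8.81 times in WT-ALF. Mlc2 likewise exceeded Mlc1 per kb by a median of 1.18 times in Sk2-TRF and 1.08 times in Sk2-ALF, against 2.93 times in WT-TRF and 2.77 times in WT-ALF. Among titin-like genes, sls, bt and Unc-89 (obscurin) passed no test against WT under either regimen. In whole-tissue RNA, fewer cells of a type and less RNA per cell cannot be told apart.

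**Figure D3:**
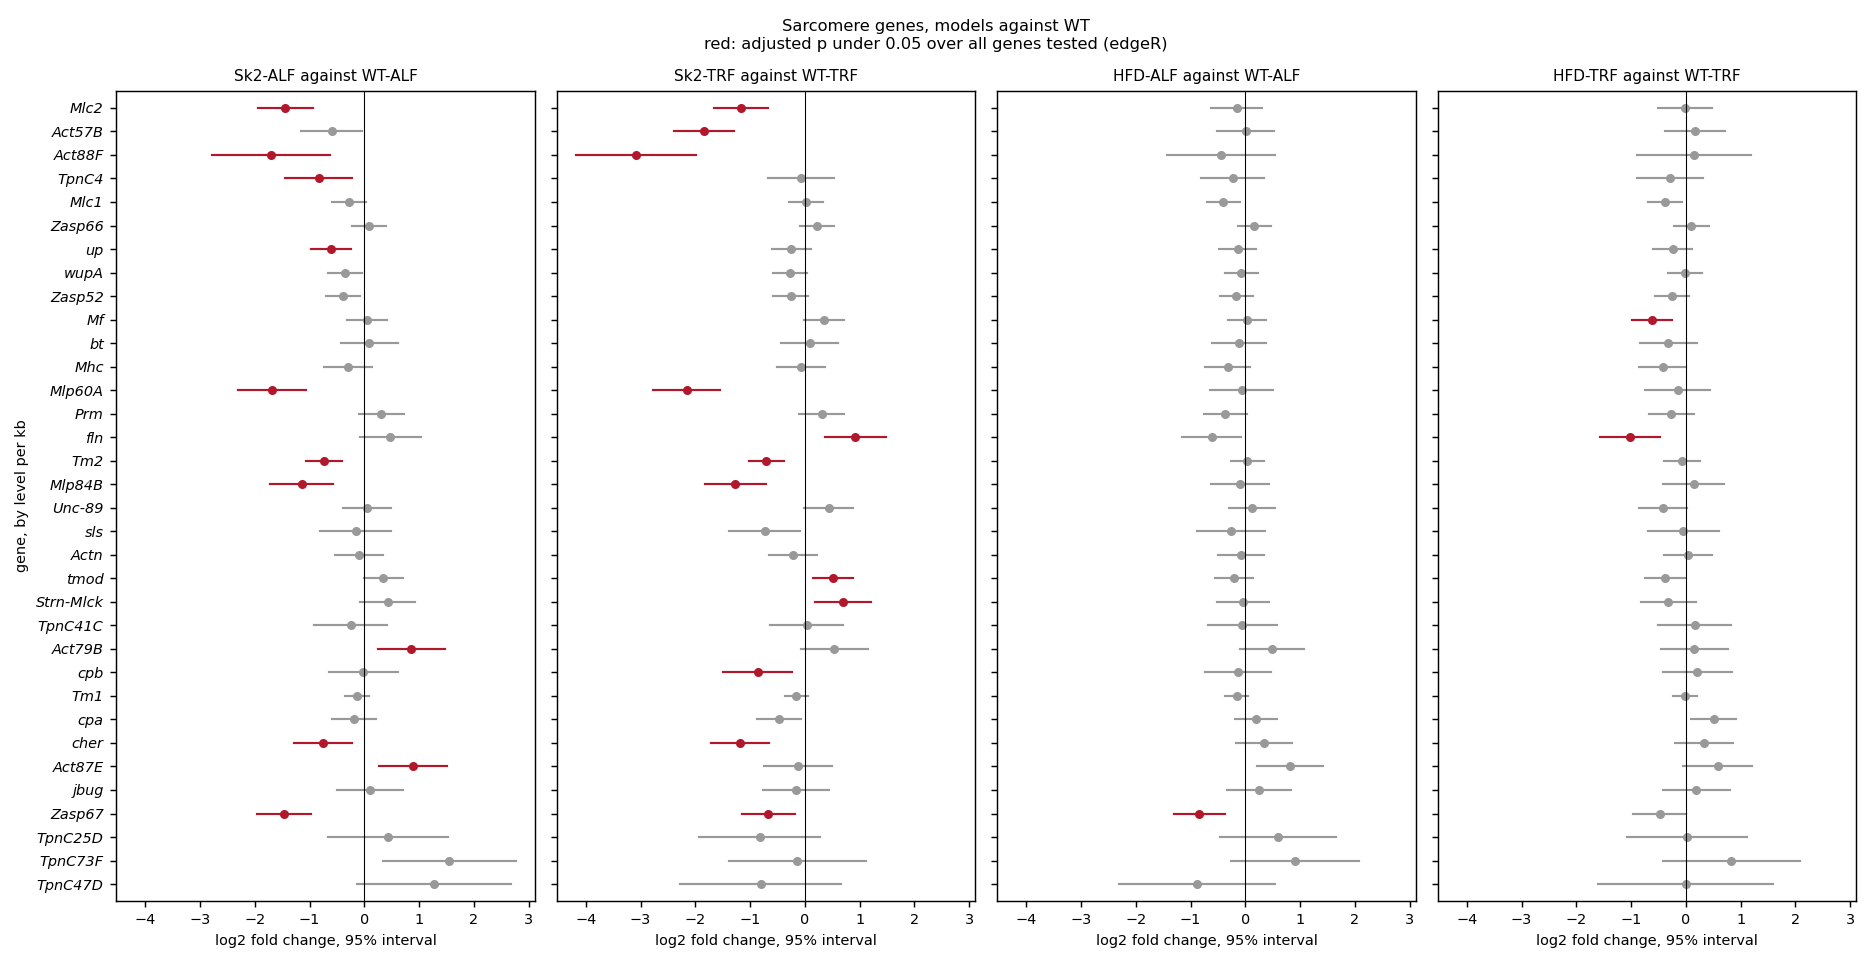
Log2 fold changes of the 34 sarcomere genes with 95% intervals for Sk2 and HFD against WT under TRF and under ALF, with an adjusted p under 0.05 in red. Red points number 12 in Sk2-TRF and 11 in Sk2-ALF against 2 in HFD-TRF and 1 in HFD-ALF, and Act88F lies at -3.09 in Sk2-TRF.

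Genes of 3 related lists were set beside the members, at an adjusted p under 0.05. Of all genes, 12.7% were lower in Sk2-TRF than in WT-TRF and 12.7% in Sk2-ALF than in WT-ALF. Of 11 tested genes for sarcomere assembly and upkeep, 5 were lower in Sk2-TRF than in WT-TRF and none was higher, led by Lasp and by l(2)efl, a small heat shock protein gene (log2 fold change -2.04, adjusted p = 3.55e-04). In Sk2-ALF 2 were lower than in WT-ALF, Lasp and CAP (-0.62, adjusted p = 0.00700). Integrin attachment anchors myofibrils at the cell membrane. Of 12 genes listed for it, 2 were lower in Sk2-TRF (Vinc, the vinculin gene, at -1.16, and stck at -0.49) and 1 was lower in Sk2-ALF (wech at -0.62). Of 9 genes for cytoplasmic actin and myosin, 5 were lower in Sk2-TRF and 1 in Sk2-ALF, among them the non-muscle myosin light chain sqh in both (-1.75 and -1.06) and the heavy chain zip in Sk2-TRF (-1.89).

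Lasp, which encodes a LIM and SH3 domain protein that carries nebulin-like repeats and binds actin in the thin filament, was close to absent from Sk2 flies. It had 0 to 3 reads in each of the 6 Sk2-TRF libraries, 7 in all, against 59 to 195 reads in each of the 5 WT-TRF libraries, 515 in all. In Sk2-ALF it had 0 to 3 reads in each of 5 libraries, 5 in all, against 57 to 153 in each of 6 WT-ALF libraries, 785 in all. Per scaled library size, Sk2-TRF held 0.394% of the WT-TRF level (95% exact interval 0.158 to 0.818%) and Sk2-ALF 0.347% of the WT-ALF level (0.112 to 0.813%), where the intervals cover counting error only. HFD flies had 18.3 to 38.5 CPM under TRF and 19.6 to 32.2 CPM under ALF. Lasp (chr3L:16676406-16711677) lies on the same chromosome arm as Sk2 (chr3L:3047087-3050159), and a difference at Lasp in the Sk2 strain and an effect of the Sk2 mutation cannot be told apart. Lasp was singled out after its values were seen.

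The diet model was compared with the same WT libraries, so that HFD and Sk2 comparisons share their WT samples. Under TRF, 2 of 34 members were lower in HFD-TRF than in WT-TRF at an adjusted p under 0.05 and none was higher, beside 4.74% of all genes lower and 5.73% higher. Both encode thick filament proteins. Flightin was at 111, 159 and 243 CPM in HFD-TRF (lowest, median and highest), against 271, 417, 354, 330 and 325 CPM in WT-TRF, and was 2.03-fold lower (log2 fold change -1.02 ± 0.27, adjusted p = 0.0146). Myofilin (Mf), a core protein of insect thick filaments, was at 1177, 1389 and 1734 CPM in HFD-TRF, against 2327, 2538, 1852, 2093 and 1931 CPM in WT-TRF, and was 1.54-fold lower (log2 fold change -0.62 ± 0.18, adjusted p = 0.0218). The groups overlapped in neither gene. Without WT-TRF at ZT7 neither call held (adjusted p = 0.0573 for fln and 0.101 for Mf), and that of Mf also ended without WT-TRF at ZT3 or HFD-TRF at ZT11. Of 5 fat body markers tested, 3 were lower in HFD-TRF at an unadjusted p under 0.05 and 1 of them at an adjusted p under 0.05, with sums of 5581 to 34747 CPM in HFD-TRF and 24020 to 45890 CPM in WT-TRF. Of 4 hemocyte markers, 2 were lower at an unadjusted p under 0.05 (sums of 400 to 966 CPM in HFD-TRF and 709 to 949 CPM in WT-TRF). Of 3 glia markers, 1 was higher at an adjusted p under 0.05 and 1 lower at an unadjusted p under 0.05. Glia sums were 284 to 506 CPM in HFD-TRF and 358 to 568 CPM in WT-TRF. The part of these markers in the 2 calls was not tested.

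Flightin thus lay on opposite sides of WT-TRF in the 2 obesity models, at 111 to 243 CPM in HFD-TRF and 447 to 838 CPM in Sk2-TRF, against 271 to 417 CPM in WT-TRF. Under ALF it was at 73.5 to 480 CPM in HFD-ALF and 436 to 660 CPM in Sk2-ALF, against 282 to 465 CPM in WT-ALF, and neither difference passed (adjusted p = 0.100 for HFD-ALF).

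Under ALF 1 member was lower in HFD-ALF than in WT-ALF and none was higher, beside 7.17% of all genes lower and 9.42% higher. Zasp67 was at 24.7, 30.5 and 41.1 CPM in HFD-ALF, against 28.3, 56.6 and 79.8 CPM in WT-ALF, with overlap through the WT-ALF library at ZT3 (1.79-fold lower, log2 fold change -0.84 ± 0.23, adjusted p = 0.0116). The call did not hold without WT-ALF at ZT19 (adjusted p = 0.0501) or ZT23 (0.0579). Mlc1, lower in HFD-ALF at all 6 time points, had a log2 fold change of -0.40 (adjusted p = 0.0546), and Act87E, higher at 5 of 6, one of 0.81 (adjusted p = 0.0566). Of 6 neuron markers, 4 were higher in HFD-ALF than in WT-ALF at an adjusted p under 0.05, with summed levels of 157 to 617 CPM in HFD-ALF and 118 to 206 CPM in WT-ALF, and their part in these values was not tested. Act88F averaged 3567 ± 916 CPM in HFD-ALF and 4867 ± 3046 CPM in WT-ALF, and 5811 ± 1980 CPM in HFD-TRF and 5225 ± 2026 CPM in WT-TRF (SD), and was not called under either regimen. The other actins, TpnC4 and Mhc were likewise not called. Act57B was at 5318 to 8087 CPM in HFD-TRF and 4756 to 7797 CPM in WT-TRF, and at 3700 to 5986 CPM in HFD-ALF and 2733 to 7343 CPM in WT-ALF. TpnC4 was at 455 to 1931 CPM in HFD-TRF and 1017 to 1561 CPM in WT-TRF, and at 842 to 2941 CPM in HFD-ALF and 920 to 2436 CPM in WT-ALF. Mhc was at 1868 to 3037 CPM in HFD-TRF and 2680 to 3633 CPM in WT-TRF, and at 1062 to 3299 CPM in HFD-ALF and 1774 to 3766 CPM in WT-ALF. The ranges of HFD and WT flies overlapped in all 3 genes under both regimens.

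Related genes also moved with the diet, among them a cytoplasmic actin. At an adjusted p under 0.05, 5.73% of all genes were higher in HFD-TRF and 9.42% in HFD-ALF, and 7.17% were lower in HFD-ALF. At an unadjusted p under 0.05, 24.0% of all genes differed in HFD-TRF and 30.5% in HFD-ALF, in either direction (edgeR). Act5C was at 1082 to 2669 CPM in HFD-TRF against 626 to 926 CPM in WT-TRF (2.29-fold higher, adjusted p = 0.00113), and at 808 to 1615 CPM in HFD-ALF against 558 to 981 CPM in WT-ALF (1.87-fold higher, adjusted p = 0.00517). Of the 9 genes for cytoplasmic actin and myosin, 3 were higher in HFD-TRF, Mlc-c at a log2 fold change of 0.61 among them, and 1 was higher in HFD-ALF. Of the 12 genes listed for integrin attachment, the transferrin gene Tsf2 was higher and the integrin subunit gene mew lower in HFD-ALF (log2 fold changes 0.37 and -0.46, adjusted p = 0.0465 and 0.00320). None passed in HFD-TRF, where 2, stck and Tsf2, were higher at an unadjusted p under 0.05. None of the 11 genes for sarcomere assembly and upkeep passed an adjusted p under 0.05 in either HFD comparison, while 4 in HFD-TRF and 2 in HFD-ALF were higher at an unadjusted p under 0.05.

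Whether time-restricted feeding changes the contractile genes was asked within each model with the threshold of the study: an unadjusted p no higher than 0.05 and a log2 fold change of 0.32 or more in either direction. These comparisons share their Sk2, HFD and WT libraries with those above. No member had an adjusted p under 0.05 in any of the 3 models (edgeR), where 0.0800% of all genes did in Sk2, 0.0600% in HFD and 0% in WT flies, and 8, 1 and 2 members had an unadjusted p under 0.05, beside 8.35%, 14% and 7.74% of all genes. By DESeq2, 8, 1 and 2 members passed the study's threshold, beside 7.39%, 12.1% and 6.14% of all genes.

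In Sk2 flies 3 members were higher and 5 lower in Sk2-TRF than in Sk2-ALF at the study's threshold, beside 2.79% of all genes higher and 3.94% lower. Mf was at 1902, 2680 and 3806 CPM in Sk2-TRF, against 1511, 2164, 1525, 1720 and 1498 CPM in Sk2-ALF, and was higher at all 5 shared time points (1.63-fold, log2 fold change 0.71 ± 0.18, adjusted p = 0.216). Under the other settings tried, the adjusted p of Mf ran from 0.0260 to 0.591 (edgeR or DESeq2). Unc-89, which holds the M-line of the thick filament together, was at 1697, 3088 and 3329 CPM in Sk2-TRF, against 1769, 1791, 2087, 1616 and 1857 CPM in Sk2-ALF (1.52-fold higher, log2 fold change 0.60 ± 0.22, adjusted p = 0.500). Zasp67 was at 22.3, 32 and 43.9 CPM in Sk2-TRF, against 20.7, 20, 26.4, 21.4 and 15 CPM in Sk2-ALF (1.55-fold higher, log2 fold change 0.64 ± 0.24, adjusted p = 0.508). Without Sk2-TRF at ZT15 it missed the threshold on p (log2 fold change 0.49, unadjusted p = 0.0530, edgeR). The groups overlapped in all 3 genes. Of 5 fat body markers tested, 2 were higher in Sk2-TRF at an unadjusted p under 0.05, with sums of 23674 to 58862 CPM in Sk2-TRF and 15501 to 25949 CPM in Sk2-ALF, and their part in the 8 member calls was not tested.

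Among the 5 lower members, the calls of Act57B, Act88F and cpb depended on the Sk2-ALF library at ZT11, that of Act57B by a narrow margin. Act57B was at 1120 to 2052 CPM in Sk2-TRF, against 2099, 2480, 6756, 2471 and 1907 CPM in Sk2-ALF (log2 fold change -0.95 ± 0.27, adjusted p = 0.309). Without Sk2-ALF at ZT11 its log2 fold change was -0.45 (unadjusted p = 0.0518, edgeR). For Act88F the log2 fold change was -1.28 ± 0.51 (adjusted p = 0.527), and -0.26 without that library (unadjusted p = 0.572, edgeR). The Act88F call also ended with time point as a block (-0.94) and with only the compared groups fitted (-1.28). For cpb the log2 fold change was -0.85 ± 0.31 (adjusted p = 0.500), and -0.27 without the Sk2-ALF library at ZT11 (unadjusted p = 0.308, edgeR). None of these 3 genes passed the threshold without it. The minor troponin C genes kept the call whichever library was left out. TpnC73F was at 2.86, 7.73 and 14.3 CPM in Sk2-TRF, against 15.4, 44.7, 6.65, 20.8 and 35.8 CPM in Sk2-ALF (3.01-fold lower, log2 fold change -1.59 ± 0.59, adjusted p = 0.500). TpnC47D was at 0.108, 0.851 and 3.10 CPM in Sk2-TRF, against 2.12, 6.80, 0.289, 7.90 and 9.22 CPM in Sk2-ALF (4.73-fold lower, log2 fold change -2.24 ± 0.69, adjusted p = 0.455). Its lowest values lie near the 0.102 to 0.935 CPM that 3 counts represent in these libraries.

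In HFD flies no member passed the study's threshold, beside 4.02% of all genes higher and 7.32% lower. Tm1 was the member with the smallest p, at 426, 471 and 497 CPM in HFD-TRF, against 329, 395 and 461 CPM in HFD-ALF. It was higher at all 6 time points, by 1.18-fold (log2 fold change 0.23 ± 0.10, adjusted p = 0.303), which is below the log2 fold change of 0.32. Act57B and Mlp84B were also higher at all 6 time points, with log2 fold changes of 0.45 (adjusted p = 0.455 and 0.465). So were Act88F, cher and cpb. Act88F had the largest log2 fold change of the actins, 0.70, at 3581 to 9051 CPM in HFD-TRF against 2310 to 4888 CPM in HFD-ALF. In contrast, fln was lower at 5 of 6 (-0.51, adjusted p = 0.375). Of 6 neuron markers, 4 were lower in HFD-TRF at an unadjusted p under 0.05, with sums of 122 to 294 CPM, against 157 to 617 CPM in HFD-ALF. Of 5 fat body markers tested, 1 was higher and 1 lower at an unadjusted p under 0.05. The part of these markers in the member values was not tested.

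In WT flies 2 members were higher in WT-TRF than in WT-ALF and none was lower, beside 2.72% of all genes higher and 3.24% lower. Act79B was at 119, 164, 61.7, 46.8 and 110 CPM in WT-TRF at ZT3, ZT7, ZT15, ZT19 and ZT23, against 41.4, 65.5 and 86.7 CPM in WT-ALF, with overlap (1.59-fold higher, log2 fold change 0.67 ± 0.30, adjusted p = 0.606). Without WT-TRF at ZT7 its log2 fold change was 0.43 and it missed the threshold on p (unadjusted p = 0.163, edgeR). The call also ended without WT-TRF at ZT3 or ZT23 or WT-ALF at ZT11 or ZT15. Mf was at 2327, 2538, 1852, 2093 and 1931 CPM in WT-TRF, against 1406, 1584 and 2148 CPM in WT-ALF, and was higher at all 5 shared time points (1.31-fold, adjusted p = 0.606). This call ended without WT-TRF at ZT3 or ZT7 or WT-ALF at ZT15 or ZT19, and neither gene passed with all 36 libraries. Of 5 gut markers, 3 were lower in WT-TRF at an unadjusted p under 0.05, with sums of 182 to 1475 CPM in WT-TRF and 127 to 8141 CPM in WT-ALF, and their part in these values was not tested.

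**Figure D4:**
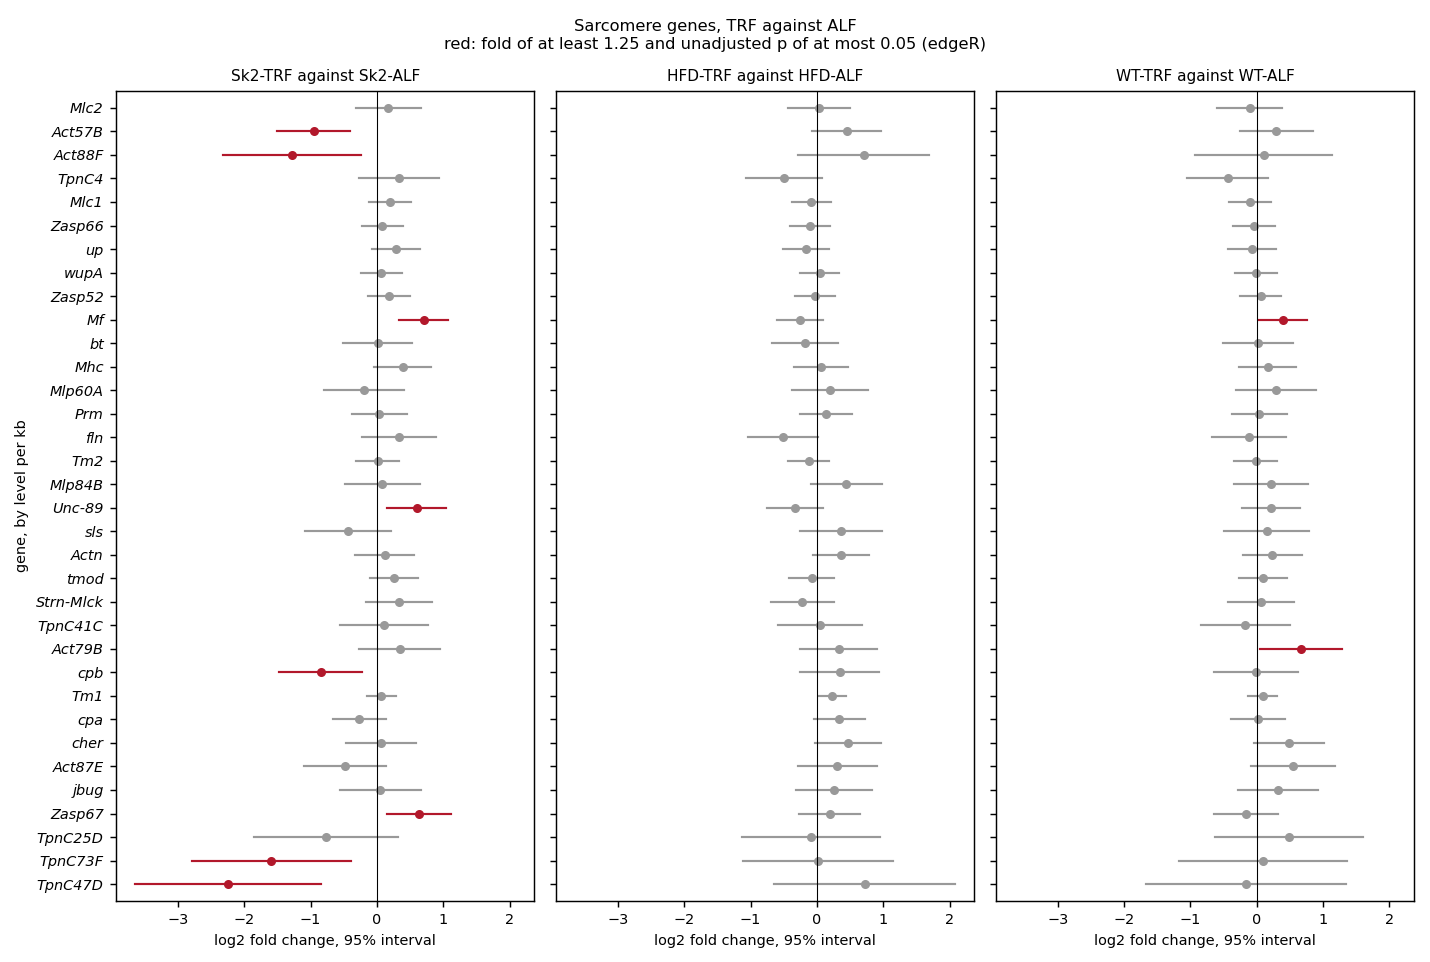
Log2 fold changes of the 34 sarcomere genes with 95% intervals for TRF against ALF in Sk2, HFD and WT flies, with genes past the threshold of the study in red. Red points number 8 in Sk2, 0 in HFD and 2 in WT flies, and most intervals cross 0.

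The effect of TRF was also compared between models. No member had an adjusted p under 0.05 for the TRF effect in HFD minus that in WT, in Sk2 minus that in WT or in Sk2 minus that in HFD (edgeR), beside 0%, 0.0100% and 0.0400% of all genes. At an unadjusted p under 0.05 there were 1, 4 and 8 members, beside 7.98%, 6.88% and 12.5% of all genes. DESeq2 called 0, 0 and 1 at an adjusted p under 0.05, beside 0.0300%, 0.0800% and 0.180% of all genes. For Mf, the member DESeq2 called, the TRF effect in Sk2 exceeded that in HFD by 0.96 ± 0.25 on the log2 scale (edgeR adjusted p = 0.157). For Act57B the TRF effect in Sk2 minus that in WT was -1.24 ± 0.38 (adjusted p = 0.560), a value that includes the Sk2-ALF library at ZT11. Of the 3 related lists, none held a gene with an adjusted p under 0.05 for TRF against ALF in any model, and the most at an unadjusted p under 0.05 were 5 of 9 genes for cytoplasmic actin and myosin, lower in Sk2-TRF (edgeR). The sum of these 9 genes in Sk2-ALF was highest at ZT11 (4248 CPM, median 2075 CPM), against 1309 to 1896 CPM in Sk2-TRF. The part of that library in the 5 results was not tested.

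The time series was read with the 6 groups as replicates of each time point. At an adjusted p under 0.05, 2 of 34 members differed between times of day by edgeR, beside 2.31% of all genes. By DESeq2 9 members did, beside 7.02% of all genes. At an unadjusted p under 0.05 there were 12 members by edgeR, and 15.7% of all genes. The median range between the highest and lowest time was 0.67 on the log2 scale for the members and 0.42 for all genes. Of the 34 members, 18 were highest at ZT11, the last time point in light, and 21 lowest at ZT3, the first. These 2 counts were not made over all genes, and most members did not differ between times at an adjusted p under 0.05.

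The capping protein gene cpb had medians of 89.6, 77.7, 169, 144, 110 and 92.7 CPM at ZT3, ZT7, ZT11, ZT15, ZT19 and ZT23, with 54.1 to 109 CPM at ZT3 and 78.2 to 274 CPM at ZT11, so that the times overlapped. Its fitted range between ZT11 and ZT3 was 1.03 on the log2 scale (adjusted p = 0.0397). The filamin-like gene jbug had medians of 218, 158, 140, 169, 285 and 248 CPM at these times, with 206 to 330 CPM at ZT19 and 90.2 to 205 CPM at ZT7, which did not overlap. Its fitted range was 0.88 (adjusted p = 0.0467). Neither call was stable: leaving out 1 library ended that of cpb in 16 of 34 cases (adjusted p = 0.121 without Sk2-ALF at ZT11) and that of jbug in 24 (0.115 without Sk2-ALF at ZT19).

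Paramyosin and Sallimus followed in the order of p. Prm had medians of 1239 CPM at ZT3 and 2113 CPM at ZT11 (range 0.75, adjusted p = 0.0728), and sls 6558 CPM and 11673 CPM (range 1.09, adjusted p = 0.0859). Single libraries stood at these ends for many members. WT-ALF at ZT3 was the lowest of its group for 19 of 34 members and HFD-ALF at ZT3 for 17, while WT-ALF at ZT11 was the highest for 16. Scaling by library totals in place of TMM would move all genes between ZT3 and ZT11 by 0.15 on the log2 scale.

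Related lists also held genes that differed by time, as 2.31% of all genes did at an adjusted p under 0.05. Of the 12 genes listed for integrin attachment, 4 did at an adjusted p under 0.05, among them Pax, the paxillin gene (range 1.05, adjusted p = 0.00931), and Fit1, the kindlin gene (0.96, adjusted p = 0.0173). Of the 11 genes for sarcomere assembly and upkeep, 1 did, the myosin chaperone gene unc-45 (1.24, adjusted p = 0.00307).

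**Figure D5:**
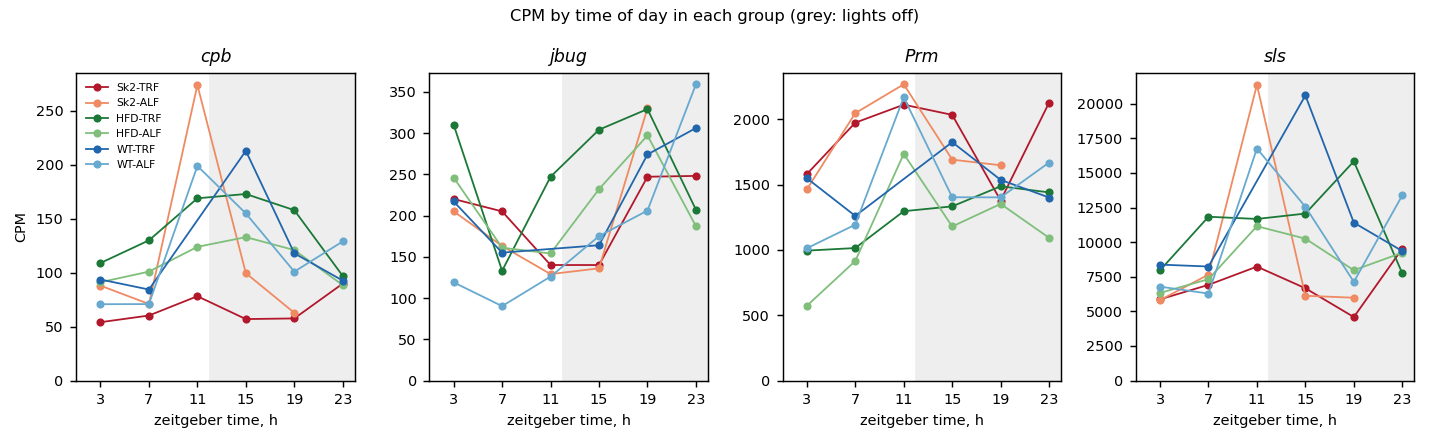
CPM of cpb, jbug, Prm and sls by time of day in the 6 groups, with the lights-off hours in grey. Medians over groups are highest at ZT11 for cpb (169 CPM), Prm (2113 CPM) and sls (11673 CPM) and at ZT19 for jbug (285 CPM).

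Night and day were compared within each regimen, since food is absent at night under TRF and present under ALF. No member had an adjusted p under 0.05 for night minus day under TRF, under ALF or for the difference between the regimens (edgeR), beside 0.0400%, 0% and 0% of all genes, and DESeq2 called 0 in each, beside 0.500%, 0% and 0.0100% of all genes. At an unadjusted p under 0.05 there were 1, 3 and 0 members, beside 7.54%, 4.53% and 4.79% of all genes. Under ALF jbug was higher at night by 0.67 ± 0.21 on the log2 scale (adjusted p = 0.785) and under TRF by 0.28 ± 0.21. Under TRF food and light change at the same hour, so their effects cannot be told apart.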

How the data were processed

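Poly(A) RNA-seq counts per gene were deposited by the authors as 1 table: 50-base single reads were aligned uniquely with STAR to dm6, and reversely stranded counts were made with featureCounts 1.5.0-p1, without multi-mapping reads. The sources name more than 1 STAR version. Counts were tested with edgeR 4.0.16 (R 4.3.3; filterByExpr, TMM scaling, quasi-likelihood F-test, 6 group means) in 34 libraries, and p-values were adjusted over the 9996 genes tested. CPM values are TMM-scaled. Precision follows from 3329519 to 30682673 counts per library. Time of day was tested in a fit of group plus time point. DESeq2 1.42.0, other scalings, filters and library sets, a time point block and leaving out each library were tried, as was leaving out the 2 eggshell-rich libraries, which was chosen after seeing the data. The fit was tested on simulated data.

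The members and lists were chosen with earlier results of these data known. Named genes were the actins, troponin C genes, Mhc, fln, up to 6 members of smallest adjusted p among those called per comparison (smallest p for feeding), and the 2 genes of smallest p per related list. Other called members are given more briefly. Lists of marker genes for tissues were summed as CPM.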

Additional observations from a re-analysis of the deposited data

Results flagged for a closer look

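CPM values of 22 members in the 6 groups were searched for a library far from the others of its group (Dixon's test at 95%). Such a library was found in 14 of 132 groups. Chance gives about 5% only for independent, normally spread values. The CPM were not log-transformed, the members share libraries, and some were named because they were called, so the 5% is no reference here. All 14 were high values, and 4 of them came from Sk2-ALF at ZT11: Act88F at 4497 CPM (next 1326 CPM), Act57B at 6756 CPM (next 2480 CPM), cher at 179 CPM (next 121 CPM) and cpb at 274 CPM (next 99.6 CPM). Another Sk2-ALF library, ZT7, held 428 CPM of Tm2 (next 316 CPM).

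In HFD-ALF at ZT23 both TpnC4 and TpnC41C stood apart, at 2941 CPM (next 1521 CPM) and 283 CPM (next 142 CPM). The minor troponin C genes stood apart in 4 different libraries. TpnC47D reached 3.10 CPM in Sk2-TRF at ZT19 and 2.81 CPM in HFD-ALF at ZT7, and TpnC73F reached 41.4 CPM in HFD-TRF at ZT15 and 29 CPM in WT-TRF at ZT19.

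Among WT libraries, Mlp84B was at 1120 CPM in WT-TRF at ZT3 (next 475 CPM), cpb at 213 CPM in WT-TRF at ZT15 (next 118 CPM) and Mf at 2148 CPM in WT-ALF at ZT11 (next 1628 CPM). The causes were not tested.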

How the results depend on the processing

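Of 1667 values of 38 gene results under other settings, none changed sign and 1508 stayed past their threshold. Results for time of day are ranges, so their sign could not change, and most settings left out only 1 library. Counts of members called moved as follows, and the causes were not tested. For TRF against ALF in HFD flies (0 members) the count was 3 with only the groups compared fitted, 2 with library totals, and 1 each with at least 10 counts in every library, with DESeq2 and with time point as a block. For HFD-ALF against WT-ALF (1) it was 2 with RLE factors, with library totals and with at least 10 counts, 3 with DESeq2 and 4 with the block. For Sk2-ALF against WT-ALF (11) it was 7 in a set of 32 libraries. With all 36 libraries it was 0 for WT-TRF against WT-ALF (2), 1 for HFD-TRF against WT-TRF (2) and 0 for time of day (2). The time count was also 0 in 32 libraries, without a filter, and without WT-ALF at ZT7 and ZT11. It was 1 with library totals and 9 with DESeq2, beside 7.02% of all genes by DESeq2. DESeq2 called 1 member for the TRF effect in Sk2 minus that in HFD (0). Leaving out 1 library gave 0 to 3 for WT-TRF against WT-ALF, 0 to 4 for HFD-TRF against HFD-ALF, 5 to 9 for Sk2-TRF against Sk2-ALF, 0 to 3 for HFD-ALF and for HFD-TRF against WT, 6 to 13 for Sk2-ALF and 8 to 13 for Sk2-TRF against WT, and 0 to 3 for time of day. Without division by length, Act88F ranked 6 in place of 3, and TpnC4 held 88.0% of troponin C in place of 93.7%. Libraries were paired by time point in that block, which also ended the call of Act88F for Sk2-TRF against Sk2-ALF. Depth limits TpnC47D most, with as few as 2 counts in a library.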
